A study of Mus musculus with 16 samples.

Results

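The genes described here are 31 genes of cholesterol and fatty acid synthesis, of the control of that synthesis and of cholesterol transport, measured on whole-genome expression arrays of mouse embryonic stem cells (mESCs) cultured in serum or in 2i. The members were taken by pathway and not by their signal: 5 of the mevalonate pathway, 3 of isoprenoid synthesis, 11 of the sterol steps, 6 of fatty acid synthesis, 3 regulators and 3 cholesterol transport genes. The list does not hold every enzyme of these pathways. The array carried 44 probes for the 31 genes among 55681 non-control probes. Of these 44 probes, 39 passed the filter on dim signal, and every one of the 31 genes had at least 1 of them, out of 13872 named genes tested. Each gene is given by 1 main probe, the brightest tested probe that was saturated on no array, or for Scd2 its only tested probe, which was saturated on 2 arrays. Levels of different probes are not compared.

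J1 is a male wild-type mESC line. TKO cells derive from it and lack the DNA methyltransferases Dnmt1, Dnmt3a and Dnmt3b. The 3B3-3l line, called 3B3l in the study's text, is a Dnmt3a and Dnmt3b knockout that carries constitutively expressed exogenous Dnmt3b together with Dnmt3l. Serum medium was DMEM with 15% FCS and LIF at 500 U/ml. The 2i medium was serum-free N2B27 with 3.3% BSA, the MEK inhibitor PD0325901 at 1 µM, the GSK3 inhibitor CHIR99021 at 3 µM and LIF at 1000 U/ml, for 2 weeks. J1 cells in serum grew on mitomycin-C-inactivated SNLP feeder cells, whereas the other cultures were feeder-free. Loss of serum, the basal medium, the inhibitors and the LIF dose changed together, in J1 also the loss of feeder cells, and their parts cannot be told apart. There were 4 arrays of J1-serum, 3 of J1-2i, 2 of TKO-serum, 3 of TKO-2i, 2 of 3B3-3l-serum and 2 of 3B3-3l-2i. Nothing in the labels says that replicates were separate cultures, so the p-values measure the spread between these arrays, which may be technical.

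Cholesterol is built from acetyl-CoA through mevalonate, isoprenoid diphosphates, squalene and lanosterol, and the first isoprenoids also feed protein prenylation. The SREBP transcription factors, encoded by Srebf1 and Srebf2, are held in the endoplasmic reticulum by INSIG proteins when sterols are plentiful and move to the nucleus when sterols are scarce, where they bind sterol response elements, usually with the factor NF-Y beside them. LXR receptors sense oxysterols and turn on cholesterol efflux genes such as Abca1 and Abcg1. Serum supplies cells with cholesterol in lipoproteins and with fatty acids. The 2i medium lacked serum but held 3.3% BSA, and the lipid content of the media was not measured here.

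The promoter windows of the RefSeq table (build GRCm38.p6, 250 bases before to 50 after the gene start) covered 24 of the 31 members. Fdps, Fdft1, Sqle, Scd1, Scd2, Stard4 and Abcg1 were not in it. Both strands were searched for the sterol response element TCACNCCAC and the NF-Y box CCAAT. The first was in the window of 1 of the 24 members, Hmgcs1, and in 1.24% of all 32851 promoters. The second was in 20 of the 24 members (83.3%) and in 41.1% of all genes of the table, or 37.4% of all promoters. Abca1, Acaca, Acat2 and Elovl6 had no CCAAT in their windows. These matches describe letters and not bound sites. The upstream stretches of 4 members, Hmgcs1 of the mevalonate pathway, the regulator Insig1 and the sterol genes Msmo1 and Tm7sf2, are printed because their response to 2i, or its difference between lines, carries the results that follow. Each is read 5′ to 3′ along the gene's strand and ends at the base before the gene start, with capitals for the letters of either motif, where ATTGG is CCAAT on the other strand.
Hmgcs1, chr13:119690171-119690350, plus strand: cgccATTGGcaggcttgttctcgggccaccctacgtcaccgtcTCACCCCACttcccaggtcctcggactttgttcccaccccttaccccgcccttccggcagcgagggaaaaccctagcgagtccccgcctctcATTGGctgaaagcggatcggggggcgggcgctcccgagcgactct
Insig1, chr5:28071182-28071411, plus strand: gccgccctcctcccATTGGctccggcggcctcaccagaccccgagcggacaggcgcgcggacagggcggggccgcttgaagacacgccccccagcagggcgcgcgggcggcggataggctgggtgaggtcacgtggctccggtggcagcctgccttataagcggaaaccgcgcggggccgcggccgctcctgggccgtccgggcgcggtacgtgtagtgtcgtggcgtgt
Msmo1, chr8:64733579-64733743, minus strand: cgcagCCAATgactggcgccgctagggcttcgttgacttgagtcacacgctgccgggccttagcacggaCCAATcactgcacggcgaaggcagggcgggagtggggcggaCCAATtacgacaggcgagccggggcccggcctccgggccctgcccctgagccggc
Tm7sf2, chr19:6067851-6067970, minus strand: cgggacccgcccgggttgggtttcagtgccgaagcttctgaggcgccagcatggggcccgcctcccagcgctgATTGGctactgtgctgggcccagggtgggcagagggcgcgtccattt

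On the arrays, 39.7% to 49.0% of non-control spots lay well above background. The targeted genes went with the labels: Dnmt1 lay between -1.70 and -1.42 on the 5 TKO arrays and between 1.61 and 2.45 on the 11 others, in log2 signal relative to the array's 75th percentile, the level used throughout. All 10 pluripotency markers were well above background on all 16 arrays. The J1-serum arrays stood apart in markers of other cell types. The summed linear signal of 12 tested fibroblast markers was 26.8 to 34.5 on J1-serum arrays and 2.29 to 12.7 on all others, and that of 9 primitive endoderm markers was 52.5 to 61.9 against 7.80 to 19.4. In J1-2i, by contrast, the fibroblast sum was 2.29 to 2.59, with Col1a1, Pdgfra and Twist2 above background on no array. These markers also differed between media in the other lines. The fibroblast sum was 10.2 to 12.7 in 3B3-3l-serum and 3.89 to 3.91 in 3B3-3l-2i, and 5.07 to 6.03 in TKO-serum and 3.77 to 4.18 in TKO-2i. The primitive endoderm sum was 11.01 to 14.2 and 7.80 to 8.65 in 3B3-3l, and 13.8 to 15.5 and 17.1 to 19.4 in TKO, in the same order. Of the 12 fibroblast markers, 5 were called lower in 2i and 1, Pdgfrb, higher in 3B3-3l, and 3 lower and 0 higher in TKO. Pdgfrb was above background on no 3B3-3l-serum array, so the size of its rise is not given. Dcn and Pdgfra were above background on no array of 3B3-3l or TKO, and Twist2 on none of TKO. Nothing is read from a call on these. Of the 9 primitive endoderm markers, 3 were called lower in 3B3-3l and 4 in TKO, with 0 higher. Sox7, Dab2 and Foxa2 were above background on no 3B3-3l array and Foxa2 on no TKO array, and their calls there are not read. Over all genes 8% were called lower in 3B3-3l and 9.16% in TKO. The part of these markers in the responses of the members was not tested. In these bulk samples, a lower level per cell and fewer cells with that level cannot be told apart. The arrays lay on 3 slides: J1 and TKO arrays shared slides 1 and 2, and slide 3 held all 4 arrays of 3B3-3l with 1 of J1-serum.

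Across the 31 genes the median change on the switch to 2i was near 0 in J1 and above 0 in TKO and 3B3-3l. In J1 the switch also took away the feeder cells, so its response is not the same contrast as in the other lines. In J1 the median change of the members was 0.06 on the log2 scale, against 0.05 over all genes tested. In TKO it was 0.63 against 0.07, and in 3B3-3l 0.66 against 0.01. Close medians in TKO and 3B3-3l do not make the responses of single members alike. By adjusted p alone the response of 3B3-3l was higher than that of TKO for 3 members and lower for 5, together 8 of 31, against 15.9% of all genes in either direction, and the differences ran from -1.29 to 0.98. A gene rose or fell where its adjusted p was at most 0.05, and was called where the change was also at least 2-fold. In J1, 13 of 31 members rose and 5 fell (backgrounds over all genes 30.4% and 25.2%), with 5 called higher and 0 lower (10.2% and 12.7%). These include Srebf1, which passed the filter on dim signal only through the 2i groups of J1 and TKO, where it was high. With the filter set on all 16 arrays, 30 members remained and 4 were called higher in J1. Srebf1 is also 1 of the 13 that rose in J1 and 1 of the 23 that rose in TKO. In TKO, 23 rose and 1 fell (21% and 18.1%), with 9 called higher and 1 lower (6.78% and 9.16%). In 3B3-3l, 19 rose and 0 fell (16.1% and 15.4%), with 8 called higher and 0 lower (5.65% and 8%). As shares, 16.1% of members were called higher in J1, 29.0% in TKO and 25.8% in 3B3-3l. Tm7sf2 and Scd1 were called higher in all 3 lines, and no member was called in opposite directions in any pair of lines.

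**Figure D1:**
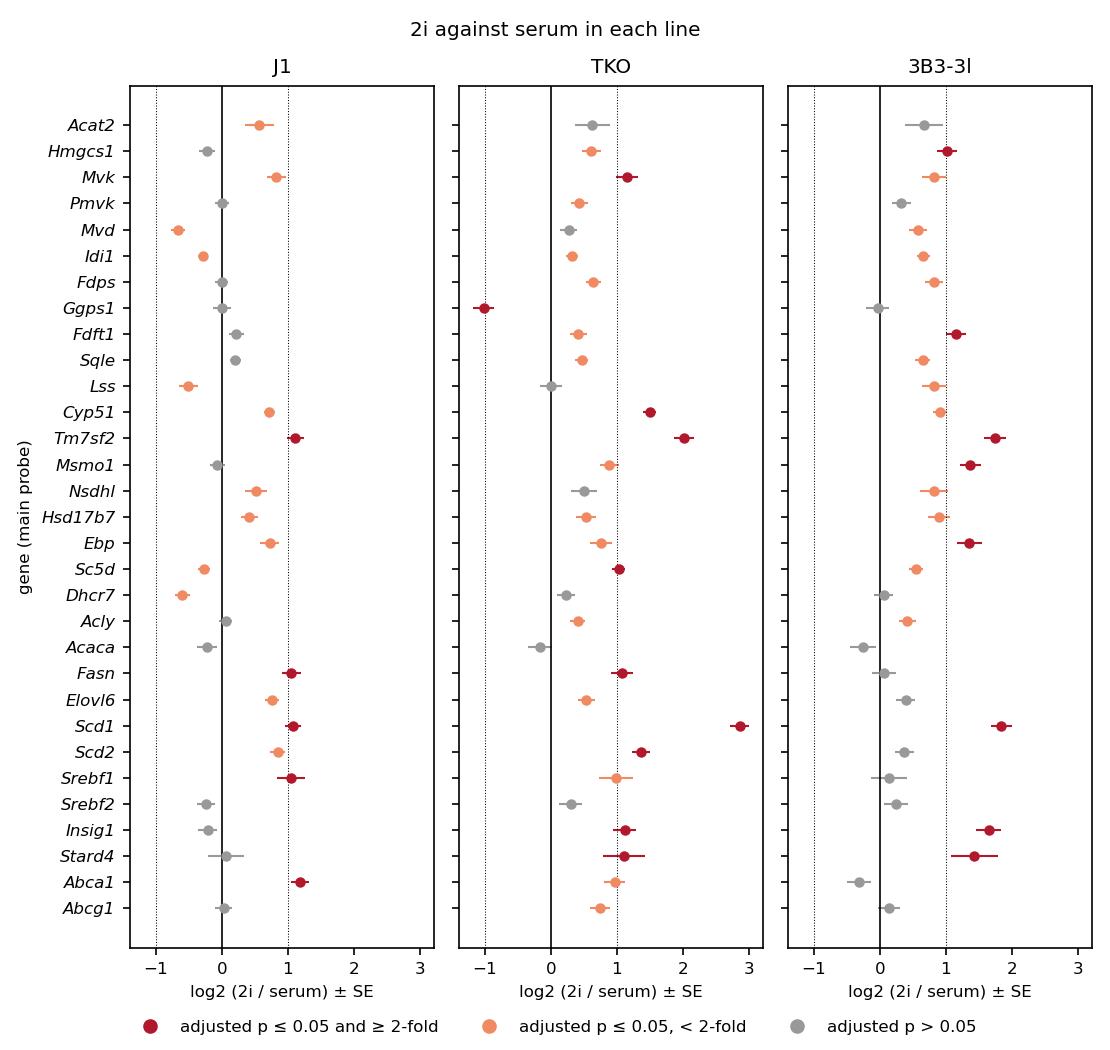
Change of each gene from serum to 2i in J1, TKO and 3B3-3l (x axis, log2 of 2i over serum, with the standard error of the limma fit as bars; y axis, genes in pathway order; dotted lines at 2-fold). Most points lie right of 0 in TKO and 3B3-3l, whereas in J1 11 of the 31 lie left of it.

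The lines differed most in serum. Of the 6 groups, TKO-serum had the lowest mean for 18 of the 31 genes and 3B3-3l-serum for 8, and J1-serum for 3. The highest mean was in a 2i group for 24. Between TKO and J1 in serum, 1 member was higher and 18 lower by adjusted p (backgrounds 23% and 23.2%), with 0 called higher and 8 called lower (7.86% and 8.77%). Between 3B3-3l and J1 in serum, 5 were higher and 17 lower (30.8% and 22%), with 1 called higher and 6 lower (9.98% and 9.54%). In 2i, TKO and J1 had 0 members called in either direction (3.89% and 3.58%), and by adjusted p alone 1 was higher and 4 lower (13.2% and 13.5%). At an unadjusted limma p under 0.05, 1 was higher and 6 were lower. The 95% interval of that difference lay within 2-fold for all 31 members, the widest bounds being -0.91 for Abca1 and 0.62 for Acat2. In 2i, 3B3-3l had 9 members higher and 3 lower than J1 (25.4% and 18.6%), with 1 called in each direction (7.89% and 6.62%), and its interval lay within 2-fold for 25. Srebf1 is 1 of the 3 lower. It was well above background on no 3B3-3l array and passed the filter only through J1-2i and TKO-2i, so nothing is read from it here. The distance between the highest and the lowest line was wider in serum than in 2i for 25 of 31 members (80.6%) and for 61.6% of all genes. Its median was 0.87 in serum and 0.45 in 2i over the members, and 0.72 and 0.57 over all genes. The J1-serum arrays, high in these comparisons, are the ones that also carried the fibroblast and primitive endoderm markers, and the part of those cells in the differences was not tested. Within slide 1, which held 2 arrays of each J1 and TKO group, the median difference of TKO from J1 was -0.43 in serum and -0.09 in 2i.

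**Figure D2:**
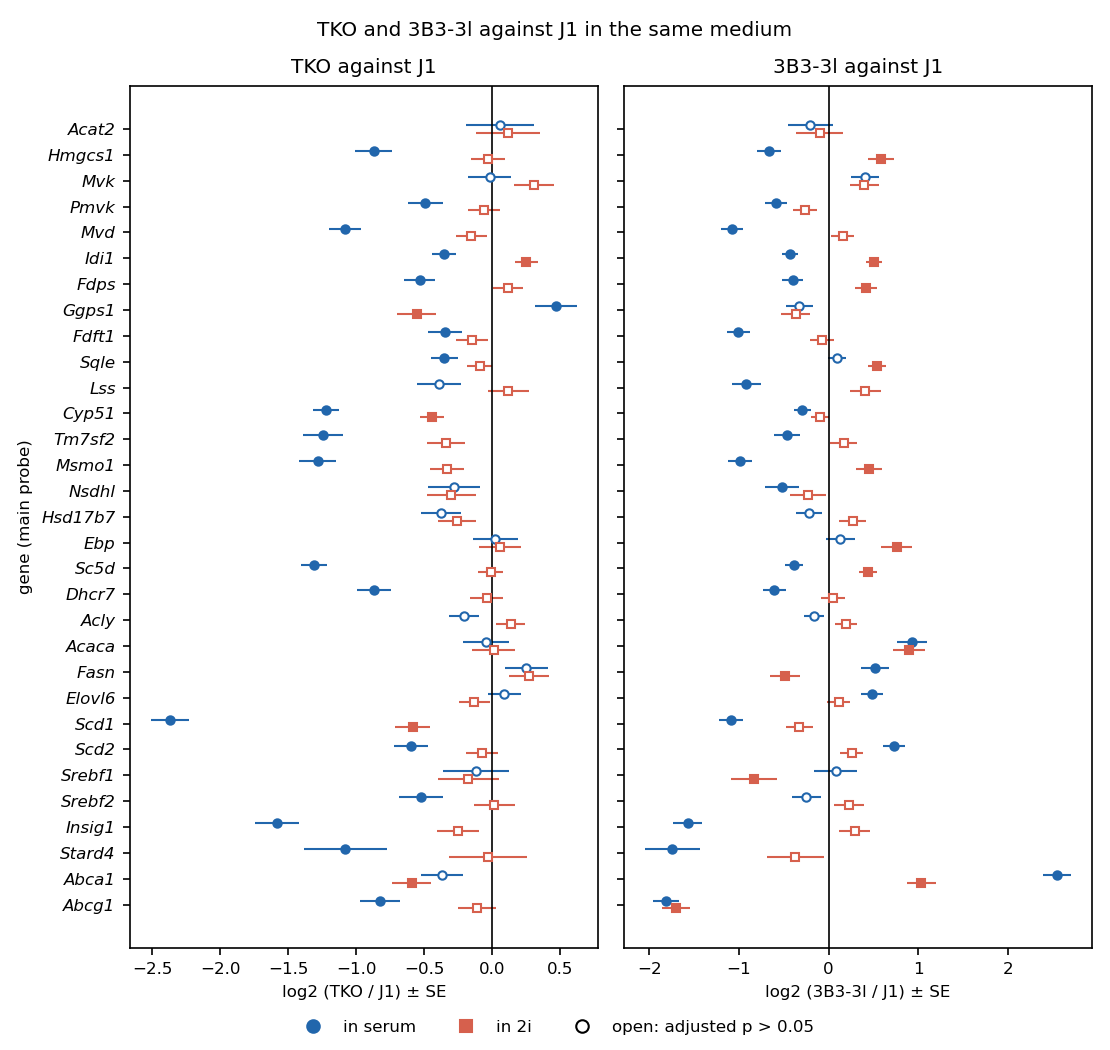
Difference of TKO from J1 (left) and of 3B3-3l from J1 (right) for each gene, on the log2 scale with standard errors, in serum (circles) and in 2i (squares); open symbols have an adjusted p above 0.05. In TKO the serum values reach -2.37 for Scd1 and the 2i values all lie between -0.59 and 0.30, and in 3B3-3l Abca1 and Abcg1 are displaced from 0 in both media.

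**Figure D3:**
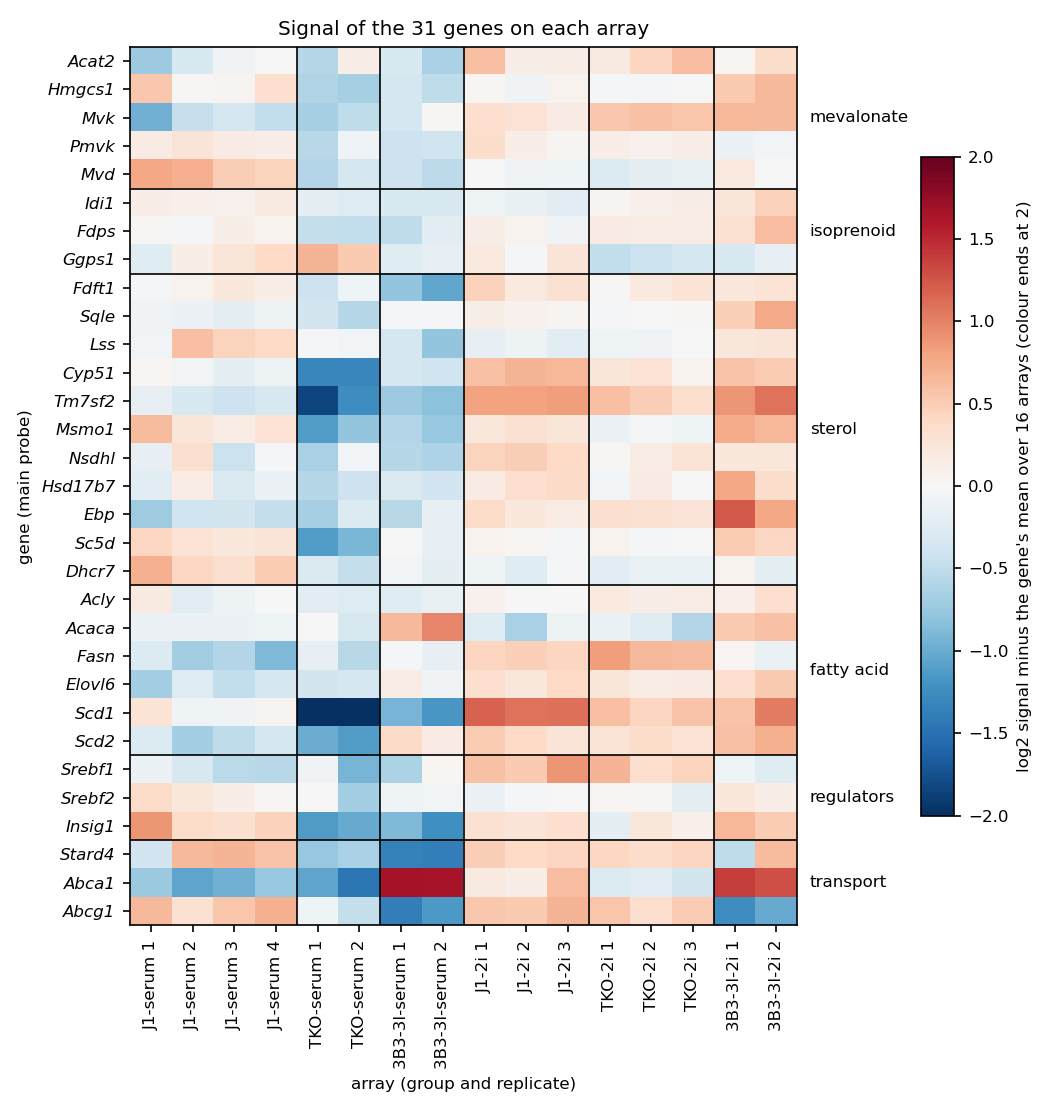
Signal of the 31 genes (rows, in pathway order) on the 16 arrays (columns, by group), as log2 signal minus the gene's mean over all arrays, with the colour scale ending at 2 in either direction. The columns of TKO-serum and 3B3-3l-serum are mostly blue, whereas J1-serum is red for Mvd, Dhcr7, Insig1 and Sc5d and blue for Ebp, Fasn and Elovl6.

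The mevalonate genes carry acetyl-CoA units to activated isoprenoids. None of the 5 was called in J1, where Acat2 and Mvk rose by 0.57 and 0.83 and Mvd fell by 0.66 on the log2 scale. Hmgcs1, which makes HMG-CoA, was at 4.97, 4.44, 4.48 and 4.76 on the J1-serum arrays and at 4.46, 4.35 and 4.49 on the J1-2i arrays. It was at 3.81 and 3.76 in TKO-serum, and at 4.38, 4.39 and 4.43 in TKO-2i. The 3B3-3l arrays gave 4.07 and 3.92 in serum and 4.95 and 5.08 in 2i. The 2 media overlapped in J1 and were apart in TKO and 3B3-3l. Hmgcs1 rose by 0.61 in TKO and by 1.02 ± 0.16 (SE) in 3B3-3l (adjusted p = 0.000317), whereas the change in J1 was -0.23. The response of 3B3-3l exceeded that of J1 by 1.25 ± 0.20 (adjusted p = 0.000441). The call in 3B3-3l lay at the 2-fold limit and was lost without 3B3-3l-serum replicate 2 (0.94) or 3B3-3l-2i replicate 2 (0.96). Mvk, mevalonate kinase, was called in TKO with 1.15 ± 0.16 (adjusted p = 0.000137) and rose by 0.82 in 3B3-3l. Its second probe rose by 0.80, 0.93 and 1.05 in J1, TKO and 3B3-3l, so the call moved from TKO to 3B3-3l between probes. Mvd, the mevalonate diphosphate decarboxylase, fell in J1 and rose by 0.57 in 3B3-3l, a difference of 1.23 ± 0.17 (adjusted p = 0.000186). In serum its difference from J1 was -1.08 ± 0.12 both in TKO (adjusted p = 1.29e-05) and in 3B3-3l (adjusted p = 1.09e-05). The TKO difference fell short of 2-fold within slide 1 (-0.94) and without TKO-serum replicate 1 (-0.97), and the 3B3-3l difference with normexp background correction (-0.89). Pmvk, the next kinase of the pathway, rose by 0.43 in TKO, and its value of 0.33 in 3B3-3l did not pass.

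The isoprenoid genes included the 1 member that was called lower in 2i. Idi1, the isopentenyl diphosphate isomerase, fell by 0.28 in J1 and rose by 0.32 in TKO and 0.66 in 3B3-3l. Fdps, farnesyl diphosphate synthase, rose by 0.65 in TKO and 0.82 in 3B3-3l, with no measurable difference in J1 (95% interval -0.22 to 0.22). Ggps1, which makes geranylgeranyl diphosphate for prenylation, was at 1.12 and 0.97 in TKO-serum and at -0.05, 0.02 and 0.10 in TKO-2i, and it was at 0.14 to 0.84 on all J1 and 3B3-3l arrays. The fall in TKO was -1.02 ± 0.16 (adjusted p = 0.000302), and the response differed from that of J1 by -1.03 ± 0.21 (adjusted p = 0.00311). A second Ggps1 probe gave -0.24 ± 0.16 in TKO, which did not pass (adjusted p = 0.267), and within slide 1 the main probe's change was -0.98, under the 2-fold limit. The main probe's call in TKO was lost under 6 of 17 alternatives and that of the response difference under 10 of 24, among them the slide block (-0.96 and -0.84) and leaving out TKO-serum replicate 1 (-0.95 in both) or TKO-2i replicate 1 (-0.98 and -0.99). The response difference also fell short of 2-fold without J1-serum replicate 1 (-0.90), J1-2i replicate 1 (-0.99) or J1-2i replicate 3 (-0.97).

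The 11 sterol genes, from squalene to cholesterol, rose in TKO for 8 members (72.7%, against 21% of all genes) and in 3B3-3l for 10 (90.9% against 16.1%), with none lower. In J1, 5 rose and 3 fell, shares of 45.5% and 27.3% against 30.4% and 25.2% of all genes. The median change of the group was 0.22 in J1, 0.53 in TKO and 0.90 in 3B3-3l. Tm7sf2, a sterol reductase downstream of lanosterol whose promoter stretch is printed above, was at 1.60, 1.46, 1.36 and 1.45 in J1-serum and at 2.58, 2.58 and 2.60 in J1-2i. The TKO arrays gave -0.07 and 0.53 in serum and 2.37, 2.26 and 2.11 in 2i. The 3B3-3l arrays gave 1.05 and 0.96 in serum and 2.65 and 2.85 in 2i. All arrays in 2i were above all arrays in serum, in every line. The rise was 1.11 ± 0.13 in J1 (adjusted p = 1.09e-05), 2.02 ± 0.15 in TKO (5.16e-07) and 1.75 ± 0.17 in 3B3-3l (6.2e-06), and a second probe gave 1.00, 1.81 and 1.84. In serum the difference of TKO from J1 was -1.24 ± 0.15 (adjusted p = 2.12e-05), and it fell short of 2-fold without TKO-serum replicate 1 (-0.95).

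Cyp51, the lanosterol demethylase, was at 1.27, 1.17, 1.03 and 1.12 in J1-serum and at 1.81, 1.91 and 1.88 in J1-2i. It was at -0.08 on both TKO-serum arrays and at 1.46, 1.51 and 1.30 in TKO-2i. The 3B3-3l arrays gave 0.87 and 0.83 in serum and 1.80 and 1.73 in 2i. The TKO-serum arrays were the lowest of all 16. Cyp51 rose by 0.72 in J1, by 1.50 ± 0.10 in TKO (adjusted p = 1.48e-07) and by 0.92 in 3B3-3l. In serum the difference of TKO from J1 was -1.22 ± 0.09 (adjusted p = 6.02e-07).

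Msmo1, the sterol methyl oxidase with 3 CCAAT boxes in its printed stretch, was at 4.93, 4.54, 4.45 and 4.58 in J1-serum and 4.52, 4.60 and 4.54 in J1-2i. The TKO arrays were at 3.18 and 3.50 in serum and at 4.18, 4.28 and 4.21 in 2i. The 3B3-3l arrays were at 3.72 and 3.54 in serum and at 5.05 and 4.96 in 2i. In J1 the media overlapped and the difference was -0.07, whereas the gene rose by 0.88 in TKO and by 1.37 ± 0.16 in 3B3-3l (adjusted p = 2.57e-05). The response of 3B3-3l exceeded that of J1 by 1.44 ± 0.20 (adjusted p = 0.000141). For Sc5d, a sterol desaturase, the response of TKO exceeded that of J1 by 1.30 ± 0.13 (adjusted p = 1.57e-05), with 1.03 ± 0.10 in TKO against -0.27 in J1. The rise in TKO lay at the 2-fold limit, and its call was lost under 4 of 18 alternatives, with 0.96 under normexp background correction, quantile normalization or the authors' table and 0.93 without TKO-serum replicate 1. Its serum level in TKO, 0.75 as a mean, was below the 2.07 of J1 by a difference of -1.31 ± 0.10 (adjusted p = 4.02e-07). Of the responses of Fdft1, squalene synthase, and Ebp, a sterol isomerase, those in 3B3-3l were called, with 1.15 ± 0.15 and 1.35 ± 0.19, while no difference between responses reached a call for either. Lss, lanosterol synthase, fell by 0.51 in J1 and rose by 0.82 in 3B3-3l, a difference of 1.33 ± 0.23 (adjusted p = 0.00102). Sqle, squalene epoxidase, rose by 0.47 in TKO and 0.65 in 3B3-3l, Nsdhl by 0.52 in J1 and 0.82 in 3B3-3l, and Hsd17b7 by 0.41, 0.53 and 0.90 in J1, TKO and 3B3-3l. A second Hsd17b7 probe gave 0.10, -0.08 and 0.72 and passed in no line. Dhcr7, a reductase of the last steps, fell by 0.60 in J1 and passed neither in TKO (0.23) nor in 3B3-3l (0.05).

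For fatty acid synthesis the medians of the lines stood in a different order. The median change of its 6 genes was 0.80 in J1, 0.80 in TKO and 0.38 in 3B3-3l, with 4, 5 and 2 rising and none falling (66.7%, 83.3% and 33.3%, against 30.4%, 21% and 16.1% of all genes). Scd2, saturated on both 3B3-3l-2i arrays, enters the 3B3-3l median as a lower bound. By adjusted p the response of 3B3-3l minus J1 was higher for 1 gene, lower for 1 and did not pass for 4, with 0 called. That of 3B3-3l minus TKO was lower for 3, of which 2 were called, and did not pass for 3. Scd1, which puts the double bond into oleic acid, was at 3.26, 2.91, 2.92 and 3.04 in J1-serum and at 4.17, 4.08 and 4.09 in J1-2i. It was at 0.62 and 0.71 in TKO-serum and at 3.59, 3.43 and 3.56 in TKO-2i. The 3B3-3l arrays gave 2.06 and 1.83 in serum, against 3.57 and 4.01 in 2i. No serum array of a line reached a 2i array of that line. Scd1 rose by 1.08 ± 0.12 in J1 (adjusted p = 9.24e-06), by 2.86 ± 0.15 in TKO, a 7.26-fold rise (1.69e-08), and by 1.84 ± 0.16 in 3B3-3l (2.48e-06). The TKO response exceeded that of J1 by 1.78 ± 0.19 (adjusted p = 2.36e-05). The response of 3B3-3l minus that of TKO was -1.02 ± 0.22 (adjusted p = 0.00698), a call lost under 6 of 20 alternatives. In serum TKO differed from J1 by -2.37 ± 0.14 (adjusted p = 6.68e-08), the largest difference of any member in that comparison, and in 2i by -0.59.

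Fasn, fatty acid synthase, was at -1.59, -2.01, -1.91 and -2.20 in J1-serum and at -0.89, -0.84 and -0.89 in J1-2i. It was at -1.49 and -1.87 in TKO-serum and at -0.47, -0.66 and -0.69 in TKO-2i, while 3B3-3l gave -1.35 and -1.48 in serum and -1.27 and -1.45 in 2i. The media were apart in J1 and TKO and overlapped in 3B3-3l. It rose by 1.06 ± 0.14 in J1 (adjusted p = 3.54e-05) and by 1.07 ± 0.17 in TKO (0.000251), with 0.06 in 3B3-3l. The response of 3B3-3l minus that of TKO was -1.02 ± 0.25 (adjusted p = 0.0153), which left the 2-fold limit or the p threshold under 9 of 20 alternatives. The response of 3B3-3l minus that of J1 was nearly as large, -0.999 ± 0.23 (adjusted p = 0.00584), just short of 2-fold, and became a call under 11 of 22 alternatives. Without TKO-serum replicate 2, the rise of Fasn in TKO was 0.88. The rise in J1 was 0.96, under the 2-fold limit, with normexp background correction, with the replicate block and without J1-serum replicate 4. Scd2, the second desaturase, rose by 0.84 in J1 and by 1.37 ± 0.13 in TKO (adjusted p = 4.15e-06). Its difference of 0.37 in 3B3-3l, where both 2i arrays were saturated for the probe, is at least 1.29-fold and did not pass (adjusted p = 0.0833). Elovl6, the elongase of palmitate, rose by 0.76 in J1 and 0.54 in TKO, and its 0.39 in 3B3-3l did not pass. Acly, which supplies cytosolic acetyl-CoA, rose by 0.40 in TKO and 0.42 in 3B3-3l. Acaca, acetyl-CoA carboxylase, gave differences of -0.25 to -0.17 and passed in no line.

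**Figure D4:**
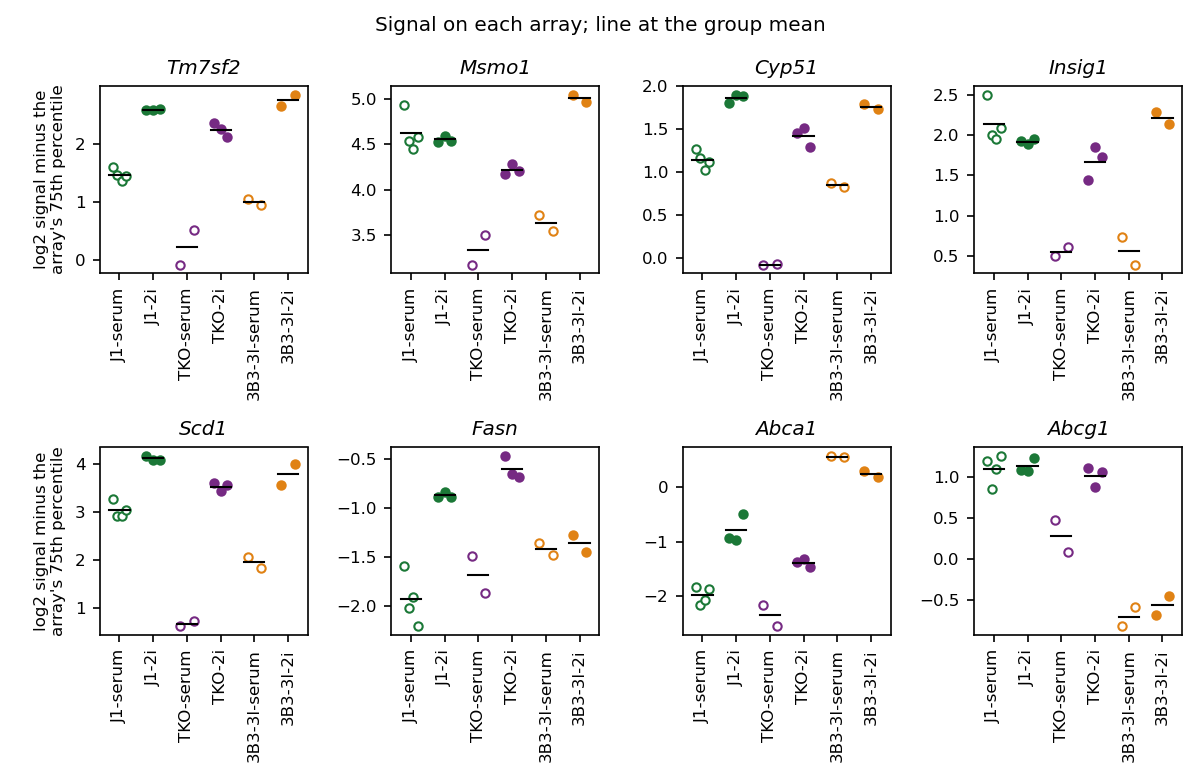
Log2 signal minus the array's 75th percentile for 8 of the genes, 1 point per array (open in serum, filled in 2i; each panel has its own axis), with a line at each group mean. Tm7sf2 and Scd1 rise in every line, Msmo1 and Insig1 lie apart between media in TKO and 3B3-3l but not in J1, and Abca1 and Abcg1 set 3B3-3l apart from the other lines in both media.

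Among the regulators, Insig1, itself a target of the SREBPs as well as their anchor, responded in TKO and 3B3-3l and not detectably in J1. It was at 2.50, 2.00, 1.95 and 2.08 in J1-serum and at 1.92, 1.89 and 1.95 in J1-2i. It was at 0.49 and 0.61 in TKO-serum and at 1.44, 1.85 and 1.72 in TKO-2i. In 3B3-3l it was at 0.74 and 0.39 in serum and at 2.29 and 2.13 in 2i. The 4 serum arrays of TKO and 3B3-3l were the lowest of all 16. Insig1 rose by 1.12 ± 0.17 in TKO (adjusted p = 0.000246) and by 1.65 ± 0.19 in 3B3-3l (2.92e-05), while its difference in J1 was -0.21 ± 0.14 (0.253, 95% interval -0.53 to 0.10). Its response exceeded that of J1 by 1.33 ± 0.22 in TKO (adjusted p = 0.000818) and by 1.86 ± 0.24 in 3B3-3l (9.14e-05). In serum it differed from J1 by -1.58 ± 0.16 in TKO (7.75e-06) and by -1.57 ± 0.16 in 3B3-3l (6.73e-06). In 2i these differences were -0.25 (95% interval -0.58 to 0.09) and 0.29 (-0.08 to 0.67). Within slide 1 the serum difference of TKO was -1.47, and within slide 3 that of 3B3-3l from the single J1-serum array was -1.94.

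Srebf2, which encodes the SREBP that mainly drives cholesterol synthesis, was at 2.40, 2.25, 2.16 and 2.04 in J1-serum, at 1.90, 1.99 and 2.03 in J1-2i, at 2.02 and 1.35 in TKO-serum and at 2.07, 2.05 and 1.83 in TKO-2i. The 3B3-3l arrays were at 1.95 and 1.98 in serum and at 2.24 and 2.16 in 2i. Its differences of -0.24, 0.30 and 0.24 in J1, TKO and 3B3-3l passed in no line, and the 95% intervals reached from -0.55 to 0.66. A second probe rose by 0.55 in 3B3-3l (adjusted p = 0.0421) and gave -0.34 in J1 and -0.10 in TKO, which did not pass (0.0597 and 0.678). In serum that probe was lower in 3B3-3l than in J1 by a difference of -1.12 ± 0.16 (8.23e-05), a call that the main probe did not give (-0.25, adjusted p = 0.222). Srebf1, whose protein mainly drives fatty acid synthesis, was dim. It was at -2.80, -3.01, -3.22 and -3.25 in J1-serum and at -2.10, -2.17 and -1.82 in J1-2i. It was at -2.77 and -3.62 in TKO-serum and at -2.01, -2.36 and -2.25 in TKO-2i, and 3B3-3l arrays gave -3.33 and -2.65 in serum and -2.78 and -2.94 in 2i. It was well above background only on the 6 arrays of J1-2i and TKO-2i, and so passed the filter through the groups where it was high. Its change is therefore a bound, of at least 1.47-fold in J1 (limma adjusted p = 0.00123) and at least 1.51-fold in TKO (0.00918), and nothing is read from these p-values. The measured change in J1, 1.04, counted as a call, which was lost under 5 of 19 alternatives: 0.67 with normexp background correction, 0.98 with the replicate block or without J1-serum replicate 4, 0.99 without J1-serum replicate 3 and 0.94 without J1-2i replicate 3.

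Stard4, which moves cholesterol between membranes, had the largest standard errors among the members. It was at 1.37, 2.40, 2.43 and 2.32 in J1-serum and at 2.24, 2.15 and 2.19 in J1-2i, at 1.00 and 1.10 in TKO-serum and at 2.17, 2.11 and 2.19 in TKO-2i. In 3B3-3l it was at 0.41 and 0.37 in serum and at 1.25 and 2.39 in 2i. J1-serum replicate 1 and 3B3-3l-2i replicate 1, both on slide 3, lay below the other arrays of their groups. The rise was 1.11 ± 0.32 in TKO (adjusted p = 0.0184) and 1.43 ± 0.35 in 3B3-3l (0.00908), with 0.06 in J1. The second probe gave 0.33 in TKO and 0.89 in 3B3-3l, which did not pass (adjusted p = 0.432 and 0.0684). The main probe's call was lost without TKO-serum replicate 1 (adjusted p = 0.0973) or replicate 2 (0.0631) in TKO, and in 3B3-3l without 3B3-3l-2i replicate 2 (0.86, adjusted p = 0.11) or with only the groups compared in the fit (1.43, adjusted p = 0.0747).

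The efflux pumps Abca1 and Abcg1 separated 3B3-3l from the other lines in both media. Abca1 was at -1.84, -2.16, -2.06 and -1.86 in J1-serum and at -0.93, -0.97 and -0.49 in J1-2i. It was at -2.15 and -2.55 in TKO-serum and at -1.37, -1.32 and -1.47 in TKO-2i. In 3B3-3l it was at 0.57 and 0.55 in serum and at 0.29 and 0.19 in 2i, above every array of the other lines. It rose by 1.19 ± 0.14 in J1 (adjusted p = 1.1e-05; 0.87 with normexp background correction) and by 0.96 ± 0.16 in TKO (0.000516), while 3B3-3l gave -0.32 (0.239). The response of 3B3-3l differed by -1.51 ± 0.23 from that of J1 (adjusted p = 0.0003) and by -1.29 ± 0.24 from that of TKO (0.00328; -0.91, no longer a call, with normexp background correction). In serum 3B3-3l was above J1 by 2.54 ± 0.15, or 5.82-fold (7.44e-08), and by 2.40 within slide 3. In 2i it was above J1 by 1.03 ± 0.16 (0.00038). That call was lost under 7 of 16 alternatives, with 0.84 with slide as a block, 0.79 with normexp background correction, 0.99 with quantile normalization or the authors' table, 0.98 without 3B3-3l-2i replicate 1, 0.97 without J1-2i replicate 1 and 0.94 without J1-2i replicate 2.

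Abcg1 ran the other way. It was at 1.20, 0.85, 1.10 and 1.26 in J1-serum and at 1.09, 1.07 and 1.23 in J1-2i. It was at 0.47 and 0.08 in TKO-serum and at 1.11, 0.88 and 1.06 in TKO-2i. In 3B3-3l it was at -0.82 and -0.60 in serum and at -0.69 and -0.45 in 2i, below every array of the other lines. It differed from J1 by -1.81 ± 0.15 in serum (adjusted p = 8.13e-07) and by -1.70 ± 0.15 in 2i (4.9e-06). It rose by 0.74 ± 0.15 in TKO (0.00234), with 0.03 in J1 and 0.14 in 3B3-3l.

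Tested as differences between responses, the change from serum to 2i was called higher in TKO than in J1 for 3 members (Sc5d, Scd1 and Insig1) and lower for 1, against backgrounds of 7.86% and 7.55%. The lower one was Ggps1, which fell in TKO and did not pass in J1. The change was called higher in 3B3-3l than in J1 for 6 (Hmgcs1, Mvd, Lss, Msmo1, Insig1 and Stard4) and lower for 1 (Abca1), against 8.71% and 8.67%. The Stard4 difference of 1.37 (adjusted p = 0.037) was lost under 13 of 22 alternatives, among them array-median scaling (adjusted p = 0.07), no filter on dim probes (0.0685) and the replicate block (0.0535). It was also lost on leaving out either 3B3-3l-serum array, any J1-2i array, any of J1-serum replicates 2 to 4, or 3B3-3l-2i replicate 2, without which it was 0.80 (adjusted p = 0.186). Between 3B3-3l and TKO the change was called higher in 3B3-3l for 0 members and lower for 3 (Fasn, Scd1 and Abca1), against 4.72% and 4.85%. The contrasts with J1 and the serum comparisons share the J1-serum arrays, and the contrast of 3B3-3l with TKO shares the arrays of those lines with the others.

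Other genes of the same pathways were read from lists beside the members. Over all genes, 10.2% were called higher and 12.7% lower in J1, 6.78% and 9.16% in TKO, and 5.65% and 8% in 3B3-3l. Of 14 genes of sterol uptake and transport, 1 was called higher and 2 lower in J1 (7.14% and 14.3%), 3 and 1 in TKO (21.4% and 7.14%), and 3 and 2 in 3B3-3l (21.4% and 14.3%). Scarb1, the HDL receptor, rose by 1.64 in TKO, by 1.69 in 3B3-3l and by 0.45 in J1. Npc2, which carries cholesterol out of lysosomes, rose by 1.45, 1.57 and 0.48 in the same order. Lipa, the lysosomal lipase that frees cholesterol from lipoprotein esters, fell in every line, by 3.01 in TKO, 1.07 in 3B3-3l and 1.15 in J1. Soat1, which esterifies cholesterol for storage, fell by 0.99, 1.74 and 2.65. Of 8 tested genes of SREBP processing, 0 were called in TKO or 3B3-3l, and 1 was called lower in J1 (12.5%). By adjusted p alone 2 of these 8 rose and 1 fell in TKO (25% and 12.5%, against 21% and 18.1% of all genes), and 1 rose and 2 fell in 3B3-3l (12.5% and 25%, against 16.1% and 15.4%). Of 10 tested LXR genes, 3 were called higher in J1 (30%), 1 was called higher in TKO (10%) and 1 lower in 3B3-3l (10%). Of 8 other sterol and isoprenoid genes, 1 was called in each direction in J1 (12.5% each) and 0 in TKO and 3B3-3l. By adjusted p alone 2 of these rose and 1 fell in J1 (25% and 12.5%, against 30.4% and 25.2% of all genes). In TKO 4 rose and 1 fell (50% and 12.5%), and in 3B3-3l 3 rose and 0 fell (37.5% rising).

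Beyond the 6 fatty acid members, 35 further genes of fatty acid and glyceride synthesis were tested. In J1, 3 were called higher and 5 lower (8.57% and 14.3%), near the shares over all genes. In TKO the counts were 5 and 4 (14.3% and 11.4%), and in 3B3-3l 3 and 3 (8.57% and 8.57%). The genes named from these lists are single values and do not set a list apart. Fads3, of the fatty acid desaturase cluster, fell by 3.74, 2.65 and 2.20 in J1, TKO and 3B3-3l. Elovl7, an elongase, rose by 2.27, 2.25 and 1.66. Dgat2, which makes triglycerides, fell by 1.52, 2.17 and 1.13. Acsl5, an acyl-CoA synthetase, fell by 0.51, 1.23 and 2.34, and Fads1 rose by 1.04, 1.53 and 0.80. Of 18 tested genes of fatty acid use, 3 were called higher and 2 lower in J1 (16.7% and 11.1%), 1 and 2 in TKO (5.56% and 11.1%) and 1 and 3 in 3B3-3l (5.56% and 16.7%). Cpt1a, the gate of mitochondrial fatty acid oxidation, rose by 1.49, 1.90 and 2.94. Fabp5, a fatty acid binding protein, fell by 1.46, 1.88 and 2.22, and Acadl, a dehydrogenase of beta-oxidation, fell by 0.66, 1.09 and 1.02.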

How the data were processed

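RNA of 16 mESC samples was hybridised by the authors to 1-colour Agilent arrays with a grid on mm9, scanned, and read with Agilent Feature Extraction 11.5.1.1 (from the submitters' processing notes). The deposited scanner text files hold, per the file headers, a processed signal intensity for each spot, the raw and background signals and flags for saturation, outliers and signal above background. The authors also deposited a table of processed log2 values, used here as an alternative. Its columns matched the scanner files by group, but 13 of 16 matched another replicate of the group best.

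From the intensities, log2 of the processed signal minus the array's 75th percentile was computed after outlier-flagged spots were left out, and replicate spots were averaged per probe. A probe was tested if it was well above background (on at least 50% of its spots) on every array of at least 1 group and had a value in every group, which left 26973 probes. Probes were named through their RefSeq accession, and 28051 of 55681 had a gene name. Differences were tested with limma 3.58.1 in R 4.3.3, in 1 model of 6 group means, two-sided, with Benjamini-Hochberg adjustment over all tested probes, in 10 comparisons. A call needed both an adjusted p no higher than 0.05 and at least 2-fold. Where a group was not well above background or was saturated on all its arrays, the change is a lower bound, the dim group being set at the lowest signal well above background on each array where that exceeded its own. Backgrounds are shares of 13872 named genes by the same rule. The fit was tested on simulated data.

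Values on every array are given for members called the same way in all lines, for the 3 largest changes in each line and for Srebf1, Srebf2, Insig1, Abca1 and Abcg1, and, chosen after their values were seen, for Hmgcs1, Msmo1, Fasn, Stard4 and Ggps1. Of each other list, at most 5 genes called in at least 2 lines are named. The members and lists were chosen with earlier results of these data known. The number of arrays limits the precision (standard errors of the members' differences 0.08 to 0.48). Alternatives varied the background correction, scaling, filter, probe, samples fitted, slide, replicate number and arrays. Replicate numbers were not used to pair arrays, since the labels give them no shared meaning. The deviations of same-numbered arrays correlated at -0.12 to 0.01 in J1 and TKO, and the 2 arrays per group of 3B3-3l cannot show a pairing.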

Additional observations from a re-analysis of the deposited data

Results flagged for a closer look

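Among the 31 members, 1 had a J1-serum array far from the other 3 by a gap test that chance alone passes in about 1 group in 20. Stard4 was at 1.37 on J1-serum replicate 1 and at 2.32 to 2.43 on the others, so the gap took up 0.895 of the range.

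Differences between the responses of 2 lines were tested by a contrast of the responses in limma, and those past both limits are listed with their log2 values. For TKO minus J1 they were 1.30 for Sc5d, 1.78 for Scd1, 1.33 for Insig1 and -1.03 for Ggps1. For 3B3-3l minus J1 they were 1.25 for Hmgcs1, 1.23 for Mvd, 1.33 for Lss, 1.44 for Msmo1, 1.86 for Insig1, 1.37 for Stard4 and -1.51 for Abca1. For 3B3-3l minus TKO they were -1.02 for Fasn, -1.02 for Scd1 and -1.29 for Abca1. The adjusted p-values ranged from 1.57e-05 for Sc5d to 0.037 for Stard4. The calls were 4, 7 and 3 of 31 members, against 15.4%, 17.4% and 9.57% of all genes in either direction, in the same order. The Ggps1 call was lost under 10 of 24 alternatives and the Stard4 call under 13 of 22. In 3B3-3l minus TKO, the calls of Fasn, Scd1 and Abca1 were lost under 9, 6 and 1 of 20. J1-serum, which enters every contrast with J1, is also the group with the high fibroblast and primitive endoderm markers, whose part was not tested.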

How the results depend on the processing

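The counts of called members held within 1.5 times under most alternatives, and no member's called change reversed under any of them. With adjusted p alone and no fold limit the counts, each with the share of all genes in either direction, were 18 in J1 (55.5%), 24 in TKO (39.1%) and 19 in 3B3-3l (31.5%) for 2i against serum, 19 (46.3%) and 5 (26.7%) for TKO against J1 in serum and in 2i, 22 (52.8%) and 12 (44.0%) for 3B3-3l against J1, and 14 (30.7%), 16 (32.1%) and 8 (15.9%) for the response differences of TKO from J1, 3B3-3l from J1 and 3B3-3l from TKO. With normexp background correction, 2 members were called in J1, against 18.4% of all genes in either direction. In the difference of 3B3-3l from TKO (7.08% of all genes) the 3 lower calls were lost and 1 higher call, Msmo1, was gained (1.03). Quantile normalization and the authors' table each left 1 call between 3B3-3l and J1 in 2i (14.1% and 14.0% of all genes). With the replicate block the count was 3 in J1 (22.6% of all genes). It was 5 in the difference of 3B3-3l from TKO (4 lower and 1 higher, against 9.19% of all genes). The labels do not say what a shared number means. The deviations of same-numbered arrays of a line correlated at -0.12 to 0.01 in J1 and TKO. In 3B3-3l, with 2 arrays per group, the deviations within a group mirror each other. Its 0.29 for same-numbered arrays and -0.29 for unlike numbers are therefore 1 value, which cannot show whether the numbers pair arrays. Leaving out 1 array at a time gave these counts, each with the range of the share of all genes called in either direction. For 2i against serum they were 3 to 5 in J1 (22.2% to 23.3%). TKO gave 9 to 12 (15.2% to 16.7%) and 3B3-3l 7 to 9 (13.0% to 14.8%). The 3 in J1 came without J1-serum replicate 4 (22.4%). TKO against J1 gave 6 to 8 in serum (15.3% to 18.4%) and 0 to 0 in 2i (6.21% to 9.79%). 3B3-3l against J1 gave 5 to 10 in serum (19.0% to 21.0%) and 1 to 3 in 2i (12.8% to 14.9%). TKO minus J1 gave 3 to 7 (14.2% to 16.4%), with 7 without TKO-serum replicate 2. 3B3-3l minus J1 gave 6 to 9 (16.6% to 17.4%), and 3B3-3l minus TKO 2 to 5 (8.89% to 9.83%). The 5, of which 1 was higher, came without TKO-2i replicate 3 or 3B3-3l-serum replicate 2. The 1 call of 3B3-3l against J1 in 2i came without J1-2i replicate 1, J1-2i replicate 2 or 3B3-3l-2i replicate 1. The cause of these changes was not tested. Of 5881 member values under the alternatives, 89 lost a call and 183 gained one. Array-median scaling moved all genes by 0.16 in the J1 response, 0.13 in the 3B3-3l response and -0.13 in the TKO response minus the J1 response. Leaving out slide 3, chosen after seeing the data, kept the J1 and TKO counts within 1.5 times. Most 3B3-3l against J1 comparisons cross slides, and where Srebf1 is dim or Scd2 saturated the change is a bound.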
